A study of Mus musculus with 36 samples.

Results

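The 10 genes described here encode the receptors through which Wnt ligands are sensed, namely the Frizzled genes Fzd1 to Fzd8 and the coreceptor genes Lrp5 and Lrp6. They were chosen by symbol, matched to the Ensembl identifiers of the count data, and make up 10 of the 52636 genes listed and 10 of the 15497 genes tested. RNA was sequenced from mouse intestinal organoids, which are epithelial structures grown from isolated crypts of the jejunum, here of C57BL/6 mice. There were 36 libraries, 6 of each of 6 conditions. Crypts came from 6 mice, and passaged organoids spent 2 days in their medium.

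The control was complete media + IgG, that is, the commercial growth medium IntestiCult with an immunoglobulin control. In QCM + IgG the medium contained concentrated medium conditioned by quiescent mouse embryonic fibroblasts, which had been deprived of serum. In SCM + IgG it contained medium conditioned by senescent fibroblasts, for which the study used X-rays or doxorubicin, and SCM + anti-Ptk7 received an antibody against Ptk7 in place of IgG. The recombinant ligand Wnt5a was added to complete media in the last pair of conditions, which are Wnt5a + IgG and, with the antibody, Wnt5a + anti-Ptk7. Every culture therefore carried either IgG or anti-Ptk7, and the antibody was not given in complete media or QCM in the libraries analysed here. The comparisons of QCM, SCM and Wnt5a with complete media share the same 6 control libraries. The organoids hold epithelium alone, without the fibroblasts, nerves or immune cells of the gut wall.

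Frizzled proteins are membrane receptors that bind the lipid-modified Wnt ligands through an extracellular cysteine-rich domain. In the canonical branch Wnt joins a Frizzled to Lrp5 or Lrp6, which leads to stabilization of beta-catenin and keeps intestinal stem cells dividing. In the noncanonical branch ligands such as Wnt5a bind Frizzled together with other partners, among them Ror2, Ryk and Ptk7, without need of Lrp5 or Lrp6.

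Frizzled genes are close relatives, and several are encoded by a single coding exon or nearly so, which bears on how reads of 50 bases can be assigned. The longest stretches of coding sequence that any pair of the 10 genes shared base for base are shown for that reason, each 5′ to 3′ on the coding strand in lower case (GRCm38, mm10). The first is chr5:4756331-4756377 on the minus strand in Fzd1 and chr11:102605740-102605786 on the plus strand in Fzd2. The second is chr5:4756964-4757010 on the minus strand in Fzd1 and chr1:59483344-59483390 on the plus strand in Fzd7. The third is chr11:102606064-102606101 in Fzd2 and chr1:59484298-59484335 in Fzd7, both on the plus strand. All lie within coding exons.
Fzd1 and Fzd2: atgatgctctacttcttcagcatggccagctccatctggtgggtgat
Fzd1 and Fzd7: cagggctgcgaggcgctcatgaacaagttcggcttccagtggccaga
Fzd2 and Fzd7: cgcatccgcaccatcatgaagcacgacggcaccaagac
The first and second are 47 bases long and the third 38, all shorter than a read, and Lrp5 and Lrp6 shared no run over 22 bases. No window of 50 coding bases of any member was found in another member, so an error-free read inside the coding sequence belonged to 1 member only. Reads with mismatches were not considered. Among other genes, only Gm38058, a transcript of unsettled coding status on the opposite strand, matched a member, with 18.3% of the 50-base windows of Fzd5. Whether counting used the strand is not given in the sources used here, so reads of Fzd5 and Gm38058 over their common stretch cannot be told apart.

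The 2 Frizzled genes with the highest level, Fzd7 and Fzd5, lie on the same chromosome, and their promoter sequences are shown to compare their RefSeq starts. They run from 250 bases before to 50 bases after the RefSeq start (GRCm38.p6), at chr1:64737701-64738000 on the minus strand for Fzd5 and at chr1:59481897-59482196 on the plus strand for Fzd7. GENCODE M21 starts Fzd5 within its window, at 64737751, but Fzd7 downstream of its window, at 59482424. The 2 windows may therefore not lie alike relative to the transcripts. Capitals mark CpG dinucleotides.
Fzd5: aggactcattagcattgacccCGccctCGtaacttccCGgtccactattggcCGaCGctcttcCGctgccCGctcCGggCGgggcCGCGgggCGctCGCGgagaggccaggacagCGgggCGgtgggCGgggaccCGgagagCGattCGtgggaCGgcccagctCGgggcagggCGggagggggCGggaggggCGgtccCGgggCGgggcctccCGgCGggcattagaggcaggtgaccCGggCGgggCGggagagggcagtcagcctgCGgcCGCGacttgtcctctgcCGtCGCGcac
Fzd7: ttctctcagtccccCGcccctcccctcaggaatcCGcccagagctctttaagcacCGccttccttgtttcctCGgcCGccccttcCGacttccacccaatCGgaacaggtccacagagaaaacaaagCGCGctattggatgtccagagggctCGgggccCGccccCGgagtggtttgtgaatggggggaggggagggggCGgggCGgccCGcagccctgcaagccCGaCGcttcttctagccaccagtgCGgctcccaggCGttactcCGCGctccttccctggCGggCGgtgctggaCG
Fzd5 held 38 CpG and 75.7% G or C, and Fzd7 held 24 CpG and 66.7%. Of the 32851 promoters of the same length, 95% had fewer CpG than Fzd5 and 80% fewer than Fzd7, with a median of 7. Neither sequence contained GGAATG, the core letters of the TEAD motif, or CTTTGA, core letters of the TCF/LEF motif, on either strand. These letters occur in 14.7% and 16% of all promoters. The motifs do not overlap each other. Promoters of the same table were also available for Fzd1 and Fzd4, of which Fzd1 held 1 match to CTTTGA and Fzd4 none.

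The libraries held between 9581589 and 21029769 counts, with a median of 13490071, at which 10 counts of a gene correspond to about 0.731 CPM. CPM is the usual count relative to the library total, here scaled by TMM normalization factors. The material was epithelial by its markers. All 7 epithelial markers, such as Epcam and Vil1, were above a mean of 0.5 CPM, whereas the 9 fibroblast markers summed to between 0.897 and 10.6 CPM in a library, with Col3a1, Dcn and Thy1 at 0 in all 36. Sums of the immune and endothelial markers did not exceed 3.79 and 1.18 CPM. The 6 libraries numbered 1 were the most extreme: in each of the 6 conditions they had the lowest sum of the 4 stem cell markers (768 to 1595 CPM) and the highest sum of the epithelial markers. Those numbered 5 came next to them on both sums in each condition, and were not left out as a set. Test results that changed side of the threshold without the libraries numbered 1 are given both ways. In bulk samples, fewer cells of a type and less RNA per cell cannot be told apart.

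All 10 members were detected, which was set as a mean of at least 0.5 CPM over the 36 libraries, and all 10 passed the filter on low counts. Levels of different genes were compared as CPM per kilobase of coding sequence. On this scale Fzd7, Fzd5 and Lrp6 formed the top tier. Fzd7, a receptor linked to intestinal stem cells, had a mean of 21.4 ± 5.91 (SD, n = 36). Fzd5, a receptor needed for Paneth cell maturation, had 20.3 ± 4.35, and the coreceptor Lrp6 had 15.7 ± 3.18. Fzd6, a receptor known from planar cell polarity in the skin, followed at 8.42 ± 1.94. A lower tier was formed by Fzd4, the receptor of norrin in the retina, at 5.76 ± 2.54, Fzd2 at 4.39 ± 1.302, the coreceptor Lrp5 at 3.72 ± 1.18, Fzd1 at 3.42 ± 1.65 and Fzd8 at 2.53 ± 1.05. Fzd3, a receptor for axon guidance in neurons, was the lowest at 0.830 ± 0.523, with 2 libraries at 0 counts, both SCM + anti-Ptk7.

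**Figure D1:**
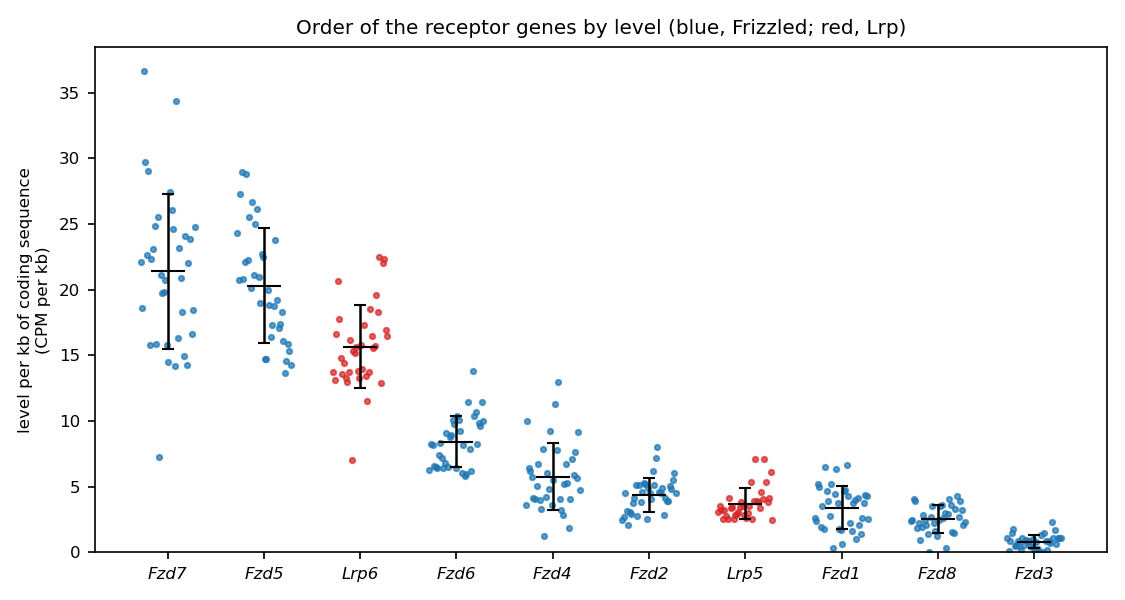
Level of each member per kilobase of coding sequence (CPM per kb, vertical axis), with 1 point for each of the 36 libraries and the mean ± SD in black. Fzd7, Fzd5 and Lrp6 lie between means of 15.7 and 21.4, above all other members, and Fzd3 lies lowest at 0.830.

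By the overlap of mean ± SD over the libraries, the order was clear only at 2 steps. Lrp6 was above Fzd6 in 36 of 36 libraries and Fzd8 above Fzd3 in 35 of 36, and for these 2 pairs of neighbours mean ± SD did not overlap. Fzd6 was above Fzd4 in 33 of 36 libraries and in the means of all 6 conditions, though their spreads overlapped. Within the top tier Fzd7 was above Fzd5 in 20 of 36 libraries and Fzd5 above Lrp6 in 29 of 36, with overlapping spreads. Lrp5 and Fzd1 also did not differ beyond their spread, as Lrp5 was higher in 19 of 36. When the union of all exons was taken as the length instead of the coding sequence, Lrp6 passed Fzd5 and Fzd4 dropped from the fifth to the eighth place, with Fzd7 first and Fzd3 last on both scales. Coding length was used because the study's methods state counting within coding sequences. Yet Gm38058, of unsettled coding status, held 79 to 323 counts a library, and a long noncoding RNA overlapping Fzd6 held up to 15. Counting was thus not limited to annotated coding sequence, at least for these genes. The coding length may therefore not fit the counts of the members. Per kb of exon Fzd7 had a mean of 8.10 ± 2.24 and Fzd5 of 5.16 ± 1.10 (SD, n = 36), so their near equality holds per kb of coding sequence only. Lrp6, at 5.55 ± 1.12 per kb of exon, and Fzd5 overlapped Fzd6, at 3.83 ± 0.880, by mean ± SD, while Fzd7 did not. The clear step below Fzd7, Fzd5 and Lrp6 therefore also holds per kb of coding sequence only.

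The summed Frizzled level was 67.0 ± 9.47 CPM per kb of coding sequence over the 36 libraries. Its condition medians ran only from 62.9 in Wnt5a + IgG to 73.9 in SCM + anti-Ptk7. Fzd7 and Fzd5 supplied on average 31.5% and 30.7% of it, Fzd6 12.8%, Fzd4 8.49%, Fzd2 6.64%, Fzd1 4.94%, Fzd8 3.74% and Fzd3 1.28%. The summed Lrp level was 19.4 ± 3.80 CPM per kb, and Lrp6 exceeded Lrp5 in all 36 libraries, between 2.41 and 8.04 times per kb.

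**Figure D2:**
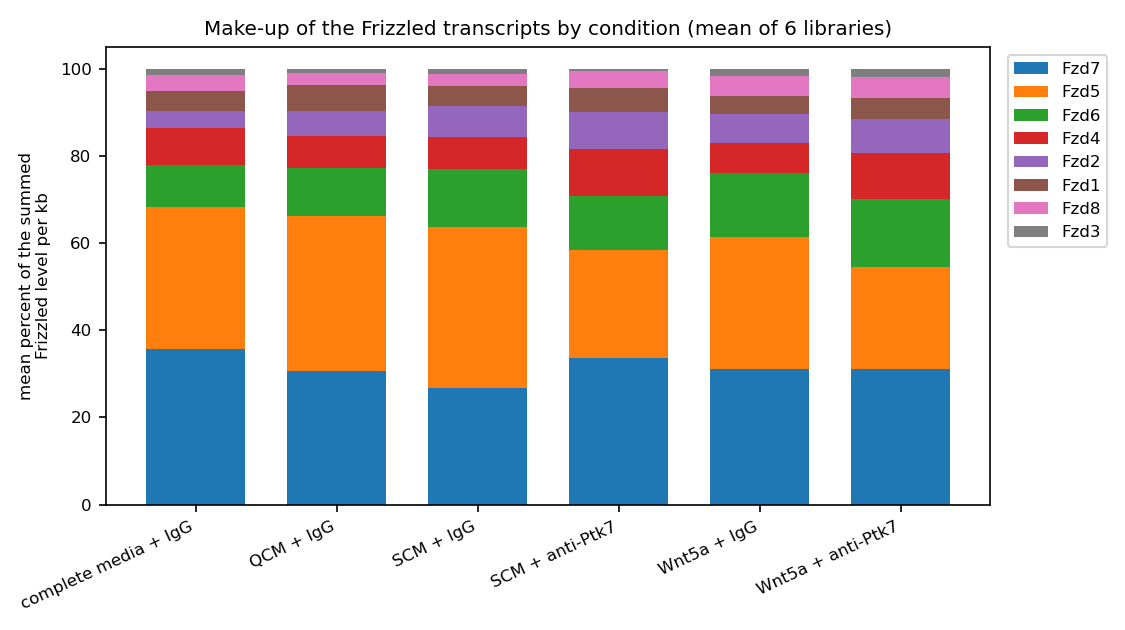
Mean percent of the summed Frizzled level per kb of coding sequence (vertical axis) held by each Frizzled gene in the 6 conditions, stacked as the mean of 6 libraries. Fzd5 holds 32.7% in complete media + IgG, 24.9% in SCM + anti-Ptk7 and 23.5% in Wnt5a + anti-Ptk7.

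Differences between conditions were tested with edgeR's quasi-likelihood test with Benjamini-Hochberg adjustment over all genes tested, with calls requiring both a fold change above 1.5 and an adjusted p below 0.05. In this fit, which had no replicate block, no member was called in any of the 7 comparisons. For QCM against complete media 0.374% of all genes tested were called, for SCM against complete media 6.08%, for Wnt5a against complete media 10.2% and for SCM against QCM 0.903%. For anti-Ptk7 against IgG these shares were 1.23% in SCM and 0.884% in Wnt5a, and for the difference between these 2 effects the share was 0, with 0 genes called. At an unadjusted p under 0.05 there were 0, 2, 4, 0, 2, 1 and 0 of the 10 members in the same order. Over all genes tested these shares were 12%, 24.7%, 33.1%, 17%, 17.1%, 15% and 3.88%, so the members' counts were near or below those of genes at large, with the most, 4 of 10, against 33.1%. With DESeq2, with voom and limma and with the replicate number as a block, 1 member was called, Fzd7 in SCM against complete media. In each of the other 6 comparisons these fits called 0.

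By adjusted p alone, without a fold cutoff, 2 members passed for Wnt5a against complete media (Fzd5 lower and Lrp5 higher, where 21.8% of all genes passed) and 1 for anti-Ptk7 in SCM (Fzd5 lower, where 2.72% passed). None of the 10 passed for QCM (0.658% of all genes), for SCM against complete media (11.9%), for SCM against QCM (1.72%), for anti-Ptk7 in Wnt5a (2.57%) or for the difference of the antibody effects (0 genes). A test of any difference among the 6 conditions was passed by Fzd5, Fzd2, Lrp5 and Lrp6, 4 of 10 members, against 39.5% of all genes, so the share was near that of genes at large. With the replicate number as a block, Fzd7 passed it too (edgeR's adjusted p = 0.0251). The standard error of a log2 fold change between 2 conditions was smallest for Fzd5, about 0.106, and reached 0.633 for Fzd3. For Wnt5a against complete media it was 0.454 for Fzd1, 0.451 for Fzd8 and 0.346 for Fzd4. The intervals of Fzd1, Fzd3, Fzd4 and Fzd8 reached further than 1.5-fold to either side of the value. Changes of 1.5-fold in these genes could therefore not be resolved with these libraries, and the absence of a call leaves them open.

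**Figure D3:**
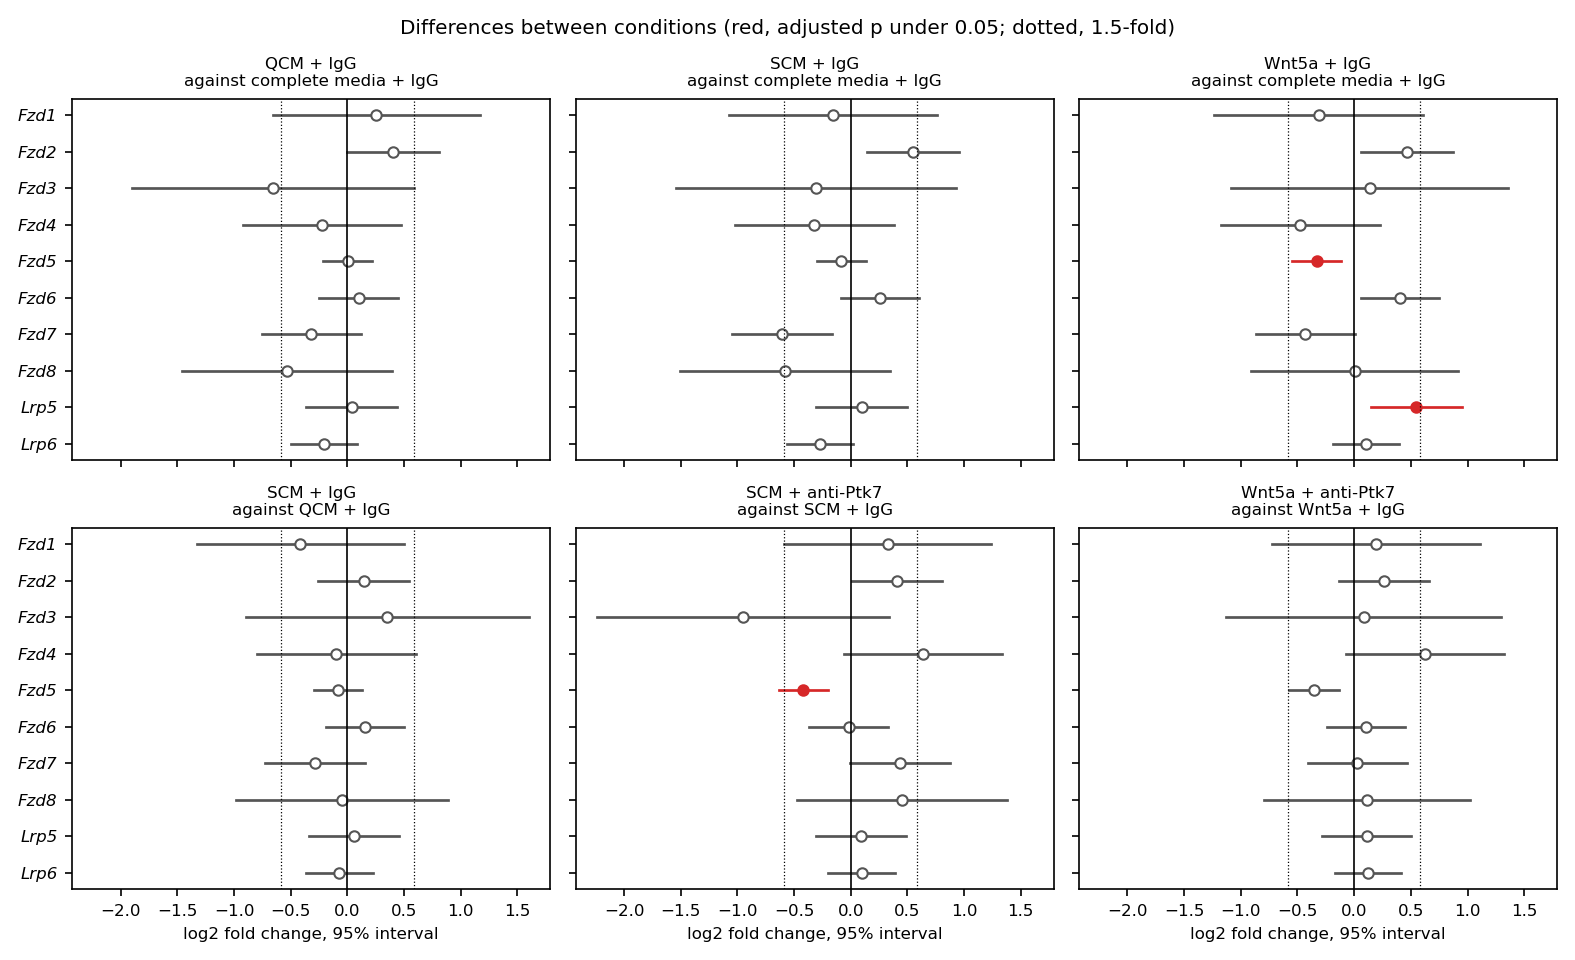
Log2 fold change of each member with its 95% interval (horizontal axis) in 6 comparisons. Points in red passed at an adjusted p under 0.05, which are Fzd5 and Lrp5 for Wnt5a and Fzd5 for anti-Ptk7 in SCM, and dotted lines mark 1.5-fold.

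Fzd5 (chr1:64730558-64737751, minus strand) was the member whose level separated the conditions most, with the highest F of the 10 (F = 14.1, adjusted p = 3.86e-06, edgeR). Its lowest, median and highest levels were 36.4, 40.7 and 50.9 CPM in complete media + IgG and 35.3, 41.9 and 50.6 in QCM + IgG. They were 33.3, 39.6 and 45.9 CPM in SCM + IgG and 30.03, 32.6 and 41.8 in Wnt5a + IgG. With anti-Ptk7 they were 25.8, 29.6 and 35.1 CPM in SCM and 23.96, 26.2 and 28.2 in Wnt5a. Complete media, QCM and SCM with IgG thus overlapped almost wholly, and all libraries of Wnt5a + anti-Ptk7 lay below all libraries of every condition with IgG.

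In Wnt5a + IgG, Fzd5 was 0.795 times its level in complete media, a log2 fold change of -0.33 (SE 0.11, edgeR's adjusted p = 0.0221). The groups overlapped through 1 library of Wnt5a + IgG, replicate 2 at 41.8 CPM, and over the 24 alternatives the adjusted p lay between 0.00598 and 0.0643 and under 0.05 in 20. Leaving out complete media + IgG replicate 3 or 4 or Wnt5a + IgG replicate 5 raised it to 0.0516, 0.0643 and 0.0557 (edgeR). Without the 6 libraries numbered 1 the log2 fold change was -0.32 and the adjusted p 0.0521 (edgeR). With anti-Ptk7 in SCM, Fzd5 fell to 0.748 times its level with IgG, a log2 fold change of -0.42 (SE 0.11, edgeR's adjusted p = 0.0261), and the adjusted p was under 0.05 in 16 of 24 alternatives, with a range of 0.00859 to 0.123. It was 0.0733 and 0.0659 without SCM + IgG replicate 1 or 2, 0.0545 and 0.0675 without SCM + anti-Ptk7 replicate 1 or 2, and 0.112 when only these groups were fitted (edgeR). Without the libraries numbered 1 this log2 fold change was -0.37 and the adjusted p 0.0831 (edgeR).

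The 5 Paneth cell markers, given beside Fzd5 for its known role in these cells, summed to 3756 to 4372 CPM in complete media, 1996 to 3885 in Wnt5a + IgG and 1711 to 3537 in Wnt5a + anti-Ptk7. In QCM + IgG they summed to 4472 to 5332 CPM, above all libraries of complete media, with 0 of the 5 called. There the log2 fold change of Fzd5 against complete media was 0.0015 (SE 0.11). In SCM the sums were 3297 to 4459 CPM with IgG and 2642 to 4244 with anti-Ptk7. Of these 5, 1 was called higher for Wnt5a against complete media, 1 lower for anti-Ptk7 in Wnt5a and 0 for anti-Ptk7 in SCM (edgeR), and their part in the level of Fzd5 was not tested.

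In Wnt5a the value of Fzd5 with anti-Ptk7 was 0.782 times that with IgG (log2 fold change -0.35, SE 0.11), which missed the threshold with an adjusted p of 0.0657 (edgeR), although the 6 libraries of each group did not overlap. Over 24 alternatives the adjusted p ran from 0.0344, with DESeq2, to 0.185. The effects of the antibody in SCM and in Wnt5a differed by 0.06 on the log2 scale (SE 0.15, 95% interval -0.24 to 0.37, edgeR's adjusted p = 0.999). For SCM against complete media and against QCM the log2 fold changes of Fzd5 were -0.08 (95% interval -0.30 to 0.13) and -0.08 (95% interval -0.30 to 0.13).

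Gm38058, which overlaps Fzd5 on the opposite strand, was close to it in some comparisons and apart in others. It had means of 18.1, 18.1, 13.9, 12.9, 11.6 and 8.08 CPM in complete media, QCM, SCM, SCM with the antibody, Wnt5a and Wnt5a with the antibody, and correlated with Fzd5 at r = 0.81 over the 36 libraries and at 0.63 within conditions, which share libraries and overlapping sequence. In Wnt5a against complete media its own log2 fold change was -0.64 (edgeR's adjusted p = 0.0139), beside -0.33 for Fzd5. For anti-Ptk7 in SCM it was -0.10 (SE 0.19), beside -0.42 for Fzd5, and for SCM against complete media -0.38 (SE 0.19), beside -0.08. When its counts were added to those of Fzd5, the log2 fold change was -0.42 for Wnt5a (edgeR's adjusted p = 0.00858) and -0.33 for anti-Ptk7 in SCM (edgeR's adjusted p = 0.123), so the latter passed only without the added counts.

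**Figure D4:**
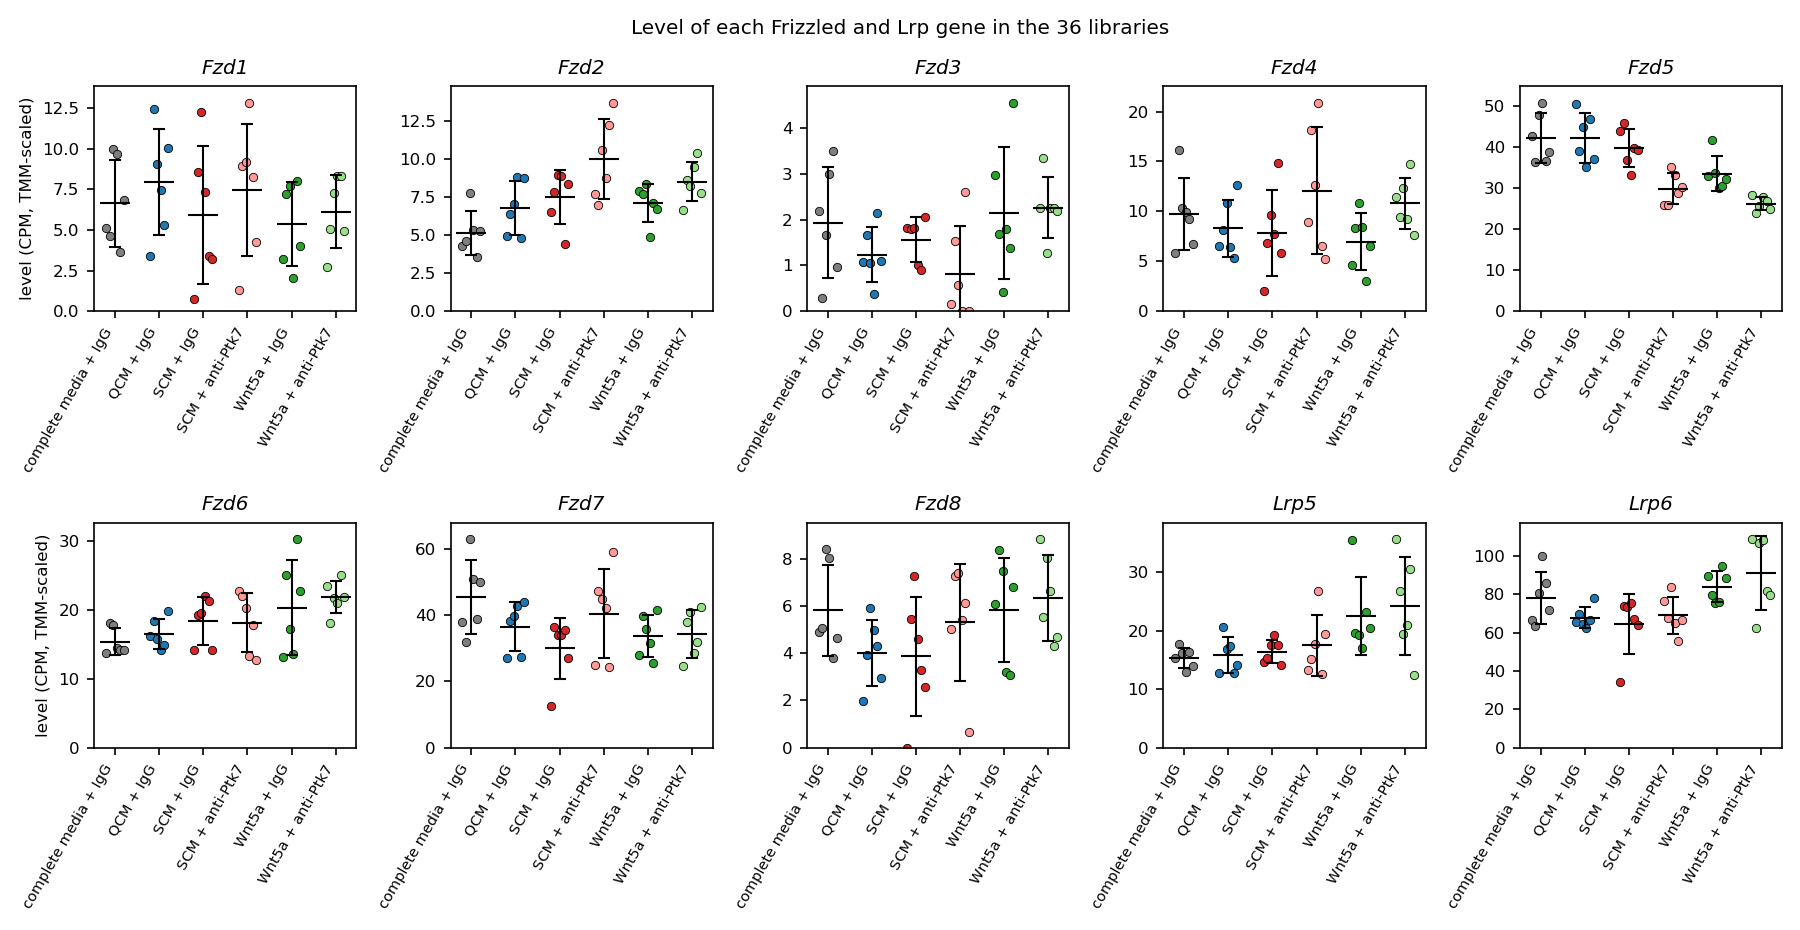
Level of each member in CPM (vertical axes, each from 0) in the 6 conditions, with 1 point a library and the mean ± SD in black. Fzd5 has a mean of 42.2 in complete media + IgG and of 26.2 in Wnt5a + anti-Ptk7 without overlap, whereas most other members overlap between all conditions.

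Fzd7 (chr1:59482424-59486955, plus strand) had its highest median in complete media and its lowest medians in SCM + IgG and both Wnt5a conditions. Its lowest, median and highest levels were 31.96, 44.4 and 62.9 CPM in complete media + IgG, 27.1, 39.0 and 43.8 in QCM + IgG and 12.4, 33.998 and 36.2 in SCM + IgG. They were 24.4, 43.5 and 58.9 CPM in SCM + anti-Ptk7, 25.6, 33.6 and 41.3 in Wnt5a + IgG and 24.5, 34.8 and 42.5 in Wnt5a + anti-Ptk7. Each pair of these conditions overlapped, and the lowest value, 12.4 CPM, belonged to SCM + IgG replicate 1.

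For SCM against complete media the log2 fold change of Fzd7 was -0.60 (SE 0.22), 0.658 times, with an adjusted p of 0.0622 (edgeR), which missed the threshold. With the replicate number as a block it was -0.63 with an adjusted p of 0.00508 (edgeR), and DESeq2 and both fits of voom with limma gave adjusted p-values between 0.0381 and 0.0480, so the gene was called in those 4 fits. It was also called without complete media + IgG replicate 2 (-0.70, edgeR's adjusted p = 0.0383) and without SCM + IgG replicate 2 (-0.68, edgeR's adjusted p = 0.0490). Without SCM + IgG replicate 1 the log2 fold change was -0.46 and the adjusted p 0.170 (edgeR), the highest over the 23 alternatives, and without all libraries numbered 1 it was -0.48 and 0.0867. For SCM against QCM it was -0.29 (SE 0.22, edgeR's adjusted p = 0.533), under 0.05 in 0 of 23 alternatives. For QCM against complete media it was -0.32 (SE 0.22, edgeR's adjusted p = 0.591). For Wnt5a against complete media the log2 fold change was -0.43 (SE 0.22, edgeR's adjusted p = 0.159; with the replicate block -0.44 and adjusted p = 0.0399). For anti-Ptk7 the values were 0.43 in SCM (SE 0.22, edgeR's adjusted p = 0.299) and 0.03 in Wnt5a (SE 0.22), and the difference between them, -0.41, had a 95% interval of -1.03 to 0.21.

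Because Fzd5 and Fzd7 were at about the same level per kb of coding sequence, their ratio on this scale was also described. This choice was made after their values were seen, and the ratio is given without a test. For complete media the median ratio of Fzd7 to Fzd5 was 1.06, for QCM it was 0.954 and for SCM 0.860. It was 1.304 in SCM + anti-Ptk7, 1.02 in Wnt5a + IgG and 1.41 in Wnt5a + anti-Ptk7. Fzd7 exceeded Fzd5 in 4 of 6 libraries of complete media, 3 of 6 of QCM, 1 of 6 of SCM + IgG, in 4 of 6 with anti-Ptk7 added, in 3 of 6 of Wnt5a + IgG and in 5 of 6 with anti-Ptk7 added. All conditions overlapped, the full range being 0.290 to 1.98.

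**Figure D5:**
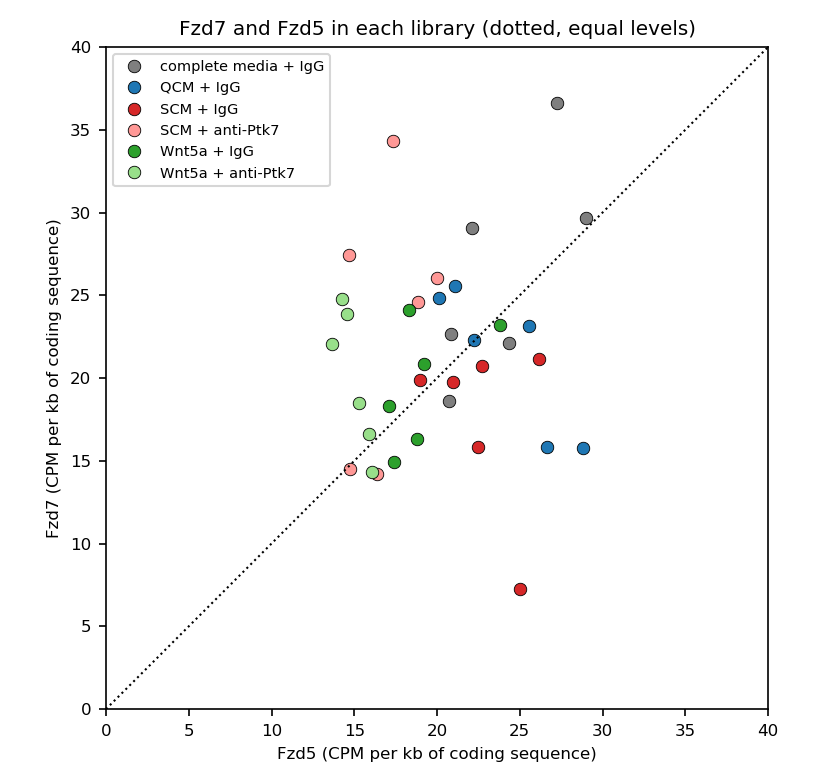
Fzd7 against Fzd5 in each of the 36 libraries, both in CPM per kb of coding sequence, colored by condition, with equal levels dotted. The 12 libraries with anti-Ptk7 lie toward low Fzd5, 9 of them above the line, and the lowest point is SCM + IgG replicate 1.

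Fzd2 (chr11:102604396-102608058, plus strand), a receptor that also takes Wnt5a, was the low-level member that varied most across conditions (F test, edgeR's adjusted p = 0.00493). Its lowest, median and highest levels were 3.58, 4.93 and 7.75 CPM in complete media + IgG, 4.78, 6.72 and 8.80 in QCM + IgG and 4.38, 8.09 and 8.98 in SCM + IgG. They were 6.998, 9.69 and 13.7 CPM in SCM + anti-Ptk7, 4.88, 7.39 and 8.38 in Wnt5a + IgG and 6.68, 8.39 and 10.4 in Wnt5a + anti-Ptk7. Complete media was thus the lowest condition and SCM + anti-Ptk7 the highest, with some overlap between both.

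No single comparison of Fzd2 passed. Against complete media the log2 fold change was 0.55 in SCM (SE 0.20, edgeR's adjusted p = 0.0691), 0.47 in Wnt5a (SE 0.20, edgeR's adjusted p = 0.0937) and 0.40 in QCM (SE 0.20, edgeR's adjusted p = 0.420). With the replicate block the SCM value was 0.56 with an adjusted p of 0.0420 (edgeR), still under 1.5-fold. Without complete media + IgG replicate 3, the highest of its group, Fzd2 was called in SCM (0.69, edgeR's adjusted p = 0.0281) and in Wnt5a (0.61, edgeR's adjusted p = 0.0312), and without SCM + IgG replicate 5 it was called in SCM (0.64, edgeR's adjusted p = 0.0306). Anti-Ptk7 gave 0.41 in SCM (edgeR's adjusted p = 0.277) and 0.26 in Wnt5a, SE 0.20 each.

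Of the other Frizzled genes none passed the F test with edgeR without the block, and Fzd3 passed it with voom and limma on TMM values (adjusted p = 0.0366). Fzd6 had condition medians between 14.3 CPM in complete media and 21.8 in Wnt5a + anti-Ptk7, and its log2 fold change for Wnt5a was 0.40 (SE 0.17, edgeR's adjusted p = 0.0892; 0.0421 and 0.0405 without Wnt5a + IgG replicate 1 or 4). Fzd4 with anti-Ptk7 had log2 fold changes of 0.64 in SCM and 0.63 in Wnt5a (SE 0.34 each, edgeR's adjusted p = 0.343 and 0.406), the largest positive values among the members in these comparisons, with overlapping groups of 2.02 to 14.8 against 5.22 to 20.9 CPM in SCM. Fzd3 with anti-Ptk7 in SCM had 0.357 CPM as its median, against 1.80 with IgG. Its log2 fold change of -0.95 had a 95% interval of -2.24 to 0.33. Fzd1 and Fzd8 had intervals that included 0 in every comparison.

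Lrp6 (chr6:134446476-134566965, minus strand), the more abundant coreceptor, had its lowest, median and highest levels at 63.6, 76.1 and 100.1 CPM in complete media + IgG, 62.7, 66.1 and 78.3 in QCM + IgG and 33.99, 70.1 and 75.6 in SCM + IgG. They were 55.6, 66.9 and 83.8 CPM in SCM + anti-Ptk7, 75.2, 84.1 and 94.7 in Wnt5a + IgG and 62.4, 94.2 and 108.8 in Wnt5a + anti-Ptk7. The Wnt5a conditions held the highest medians, and every condition overlapped with complete media. Lrp6 passed the F test (edgeR's adjusted p = 0.0246) but no single comparison, where its log2 fold changes lay between -0.27 for SCM against complete media (SE 0.14) and 0.12 for anti-Ptk7 in Wnt5a (SE 0.14). Without the libraries numbered 1 its F test gave an adjusted p of 0.0546, and without Wnt5a + anti-Ptk7 replicate 1 alone 0.0604 (edgeR).

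Lrp5 (chr19:3584828-3686564, minus strand), the second coreceptor, had lowest, median and highest levels of 12.9, 15.7 and 17.7 CPM in complete media + IgG, 12.8, 15.5 and 20.6 in QCM + IgG and 14.1, 16.4 and 19.2 in SCM + IgG. They were 12.6, 16.4 and 26.7 CPM in SCM + anti-Ptk7, 17.1, 20.1 and 35.5 in Wnt5a + IgG and 12.4, 23.8 and 35.6 in Wnt5a + anti-Ptk7. In Wnt5a + IgG 5 of 6 libraries lay above all libraries of complete media.

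Lrp5 was 1.46 times higher in Wnt5a + IgG than in complete media, a log2 fold change of 0.55 (SE 0.20, edgeR's adjusted p = 0.0424). Its highest library was Wnt5a + IgG replicate 1, and without it the log2 fold change was 0.37 and the adjusted p 0.205 (edgeR). Without all 6 libraries numbered 1 these were 0.37 and 0.190. Over 23 alternatives the adjusted p lay between 0.0275 and 0.205 and under 0.05 in 9. Of the 12 libraries compared, 8 raised it past 0.05 when left out alone, to between 0.0505 and 0.205: Wnt5a + IgG replicates 1, 5 and 6 and complete media + IgG replicates 1, 2, 3, 4 and 6. The F test of Lrp5 (edgeR's adjusted p = 0.0146) missed the threshold without the libraries numbered 1 (edgeR's adjusted p = 0.190) and with voom and limma (adjusted p = 0.0633 on TMM and 0.128 on quantile-normalized values). For QCM and SCM against complete media its log2 fold changes were 0.04 (95% interval -0.36 to 0.44) and 0.10 (95% interval -0.31 to 0.50).

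For the 3 members with the smallest p of the F test, 3 genes each are given whose pattern was most like theirs, by the highest Pearson r of log2 CPM over the 36 libraries among 12440 genes. They were 4930524O07Rik (r = 0.88), Rpl37a (0.83) and Manf (0.83) for Fzd5, Ang4 (0.74), Zbtb4 (0.71) and Paqr7 (0.70) for Fzd2, and Arf3 (0.79), Tdrd7 (0.79) and Tln1 (0.78) for Lrp5. The points share libraries and conditions. Within conditions the r of these 9 genes lay between 0.33 and 0.68.

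Among the members themselves the highest correlations within conditions were those of Fzd8 with Fzd4 (r = 0.62) and with Fzd1 (r = 0.62) and of Fzd7 with Fzd1 (r = 0.61), over 36 libraries. They rested in part on SCM + IgG replicate 1, which had the lowest level of 5 of the 10 members in its condition, at 0.716 CPM for Fzd1, 2.02 for Fzd4, 12.4 for Fzd7, 0 for Fzd8 and 33.99 for Lrp6, while its Fzd5, at 43.9 CPM, was the second highest of its condition. Without this library the same correlations were 0.41, 0.40 and 0.45. Its stem cell marker sum was 1025 CPM, the lowest of its condition. The lowest sum of all 36 libraries, 768 CPM, was that of Wnt5a + anti-Ptk7 replicate 1. That library had the highest level of 4 members in its condition, among them Lrp6 and Fzd8, and the lowest of 3. The part of stem cell content in these levels was not tested.

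The members were set beside 64 other genes of Wnt reception, of which 44 passed the filter. The noncanonical coreceptors were present as Ryk at a mean of 93.6 CPM, Ror2 at 42.2 and Ptk7, the target of the antibody, at 14.1, while Ror1 was under 0.5 CPM. Ptk7 rose in Wnt5a from 11.7 ± 1.97 to 20.2 ± 4.19 CPM (SD, n = 6 each), a log2 fold change of 0.79 (SE 0.25, edgeR's adjusted p = 0.0216), with no overlap. Its log2 fold changes with the antibody itself were -0.33 in SCM (SE 0.25) and -0.05 in Wnt5a (SE 0.25), neither of which passed.

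In Wnt5a against complete media 6 of the 44 genes were called, all higher, where 10.2% of all genes were called. Beside Ptk7 these were Rnf43, the ligase that removes Frizzled from the cell surface (124.0 to 191.1 CPM), Kremen2, a receptor of Dickkopf inhibitors (0.932 to 4.04 CPM), and Tpbg, an inhibitor of Lrp6 (10.3 to 21.4 CPM). The others were Ctnnb1, which encodes beta-catenin (921.9 to 1437 CPM), and the planar polarity gene Vangl1 (21.3 to 56.6 CPM). In SCM against complete media Kremen2 and Vangl1 were called higher and Apcdd1, a membrane inhibitor of Wnt, lower (9.07 to 3.93 CPM). These were 3 of 44, where 6.08% of all genes were called, so the share was near that of genes at large. Vangl1 was also the only gene of the list called in SCM against QCM (25.05 to 43.9 CPM), where 0.903% of all genes were called. Median log2 fold changes of the 44 genes were 0.11 for Wnt5a and 0.04 for SCM, against 0.05 and -0.22 for the 10 members and 0.01 and 0.01 for all genes tested.

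With anti-Ptk7, Lrp1 was the 1 gene of the 44 called, in both media, where 1.23% (SCM) and 0.884% (Wnt5a) of all genes were called. This large endocytic receptor is a relative of Lrp5 and Lrp6. It rose from 17.6 ± 4.58 to 31.6 ± 4.51 CPM in SCM (log2 fold change 0.84, SE 0.22, edgeR's adjusted p = 0.0300) and from 19.1 ± 6.32 to 41.9 ± 12.4 CPM in Wnt5a (1.14, SE 0.22, edgeR's adjusted p = 0.00279), each n = 6. In the same comparisons Lrp5 had log2 fold changes of 0.09 and 0.11 (SE 0.20 and 0.19) and Lrp6 of 0.10 and 0.12 (SE 0.14 each). No gene of the list was called in QCM against complete media, nor for the difference between the antibody effects.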

How the data were processed

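Smart-Seq v4 cDNA from 2 ng of RNA was sequenced as single-end reads of 50 bases. The authors filtered the reads, aligned them with GSNAP through HTSeqGenie to the mouse genome (NCBI Build 38) and deposited the counts per gene, without normalization. Their methods state counting within coding sequences, although a gene that GENCODE M21 lists as noncoding also held counts. The annotation and the use of strand are not given in the sources used here. Gene names, positions and lengths came from GENCODE M21 (147 of 52636 identifiers without a symbol).

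Genes kept by filterByExpr were scaled by TMM and tested with edgeR 4.0.16 (glmQLFit, glmQLFTest; R 4.3.3) in one model of 6 condition means, since the study's methods name no block. CPM values carry the TMM factors, and log2 CPM a prior count of 2. Alternatives were other scalings and filters, DESeq2 1.42.0, voom with limma 3.58.1, the replicate block, the compared groups alone, other fold cutoffs and each library left out. Leaving out the libraries numbered 1 and adding Gm38058 to Fzd5 were chosen after seeing the data. The code was tested on simulated data. No 2 replicates were near-identical (chi-square per gene of 7.28 or more in 90 pairs).

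Members and lists were chosen with earlier results of these data known. Named are the members, Ptk7, Ror1, Ror2, Ryk, genes of the Wnt reception list called in a comparison, and the genes most like 3 members, plus Gm38058, singled out after its values were seen. Replicate numbers 1 to 6 recur in every condition and the design names 6 mice without tying numbers to them. Deviations from the condition means correlated at a mean r of 0.0920 for libraries of the same number (34 of 90 pairs over 0.1) and -0.0180 for others. By number, the mean r was highest for number 1, at 0.241 with 15 of 15 pairs over 0.1, and for number 3, at 0.134 with 11 of 15. For numbers 2, 4, 5 and 6 it lay between 0.0231 and 0.0627. The numbers were taken as a possible pairing through the mouse, and blocked values are given where they change a call. P-values measure the spread between these cultures.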

Additional observations from a re-analysis of the deposited data

Results flagged for a closer look

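In 60 groups of 6 libraries (10 members in 6 conditions), 4 held a library whose gap to its nearest neighbour exceeded Dixon's 95% critical value of 0.625 of the group's range. Chance flags about 1 in 20 groups. Fzd5 in Wnt5a + IgG replicate 2 was 41.8 CPM, above the next library at 33.7. Lrp5 in Wnt5a + IgG replicate 1 was 35.5 CPM, above the next at 23.1. Lrp6 in SCM + IgG replicate 1 was 33.99 CPM, below the next at 64.2. Fzd8 in SCM + anti-Ptk7 replicate 6 was 0.653 CPM (7 counts), below the next at 5.02, in a library that also had the highest Fzd7 of its condition, 58.9 CPM, and no count of Fzd3.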

How the results depend on the processing

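In SCM against complete media 1 member was called instead of 0 with DESeq2, with voom on TMM or quantile-normalized values and with the replicate block (Fzd7 each time), and between 0 and 1 when single libraries were left out. In Wnt5a against complete media 2 members passed without a fold cutoff and between 0 and 1 were called when single libraries were left out (Fzd2 without complete media replicate 3, Lrp5 without complete media replicate 5 or Wnt5a + IgG replicates 3 or 4). For anti-Ptk7 in SCM 1 passed without a fold cutoff. In the other 4 comparisons 0 were called in all alternatives run. The F test was passed by 2 members instead of 4 without the libraries numbered 1 (Fzd2 and Fzd5, which passed in all 47 alternatives). Of the 1723 single log2 fold changes over the alternatives, 26 fell short of the threshold and 14 came to pass it. The sign changed in 117, which belong to 21 of the 70 member and comparison pairs, all with a reported size of at most 0.158 and none past the threshold on either side. In 1 of the 117 the shift exceeded the standard error, Lrp6 with anti-Ptk7 in SCM, from 0.10 to -0.085 without the libraries numbered 1. The replicate block, besides Fzd7 in SCM, brought Fzd2 in SCM, Fzd7 in Wnt5a and the F test of Fzd7 under an adjusted p of 0.05 and changed no other call of a member. The order of levels correlated with that by exon length at a rank correlation of 0.915 and with that by medians at 0.988. Fzd3 and Fzd8 failed the filter of 10 counts in every library and have no value there. Depth limits Fzd3, with 0 to 65 counts a library, most. The causes of these shifts were not tested.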
